A study of Mus musculus with 12 samples.

Results

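CatSper is the calcium channel of the sperm tail. The genes described here are the 8 rows of the deposited gene table named Catsper1, Catsper2, Catsper3, Catsper4, Catsperb, Catsperd, Catsperg1 and Catsperg2, of 20788 genes in all. They were chosen by name and not by any measured value. RNA of F1 mouse testes, strain label "IRC mouse", was sequenced in 12 libraries, 3 for each treatment label. In the group labelled 8276KD a virus served to inhibit lncRNA8276, which the labels describe only by this name for a long non-coding RNA, and in the group labelled 8276OV the virus served to overexpress it. The groups labelled 3NC and 5NC are taken as the controls of 8276KD and 8276OV, in the order in which the design lists them. The labels name neither the virus, nor what the control groups were given, nor the age of the mice. Nor do they state that each library is a different animal. The p-values therefore reflect only how much these samples vary, and that variation may be technical. lncRNA8276 itself was not analysed here, and the labels were not checked against its level.

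CatSper opens in the plasma membrane of the principal piece of the tail when the inside of the cell turns alkaline, and the calcium that enters drives the hyperactivated beat a sperm needs to reach and penetrate the egg. Catsper1, Catsper2, Catsper3 and Catsper4 encode the pore-forming subunits, one of each around a single pore. Catsperb, Catsperd, Catsperg1 and Catsperg2 encode auxiliary subunits of the beta, delta and gamma kinds, which have large domains outside the cell. Male mice without any one of the pore genes are infertile. The testis makes these transcripts in germ cells. Catsper1, Catsper3 and Catsper4 transcripts are known mainly from the haploid spermatids, and Catsper2 transcripts appear already in meiotic spermatocytes.

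All 8 genes are annotated as protein-coding, at 8 places on 7 chromosomes. Positions are from GENCODE M21 on GRCm38, the assembly behind mm10. Of the pore genes, Catsper1 (Entrez 225865) lies at chr19:5335741-5344280 on the plus strand, Catsper2 (Entrez 212670) at chr2:121392631-121413792 on the minus strand, Catsper3 (Entrez 76856) at chr13:55784568-55808998 on the plus strand and Catsper4 (Entrez 329954) at chr4:134211970-134227383 on the minus strand. Of the auxiliary genes, Catsperb (Entrez 271036) lies at chr12:101404653-101626009 and Catsperd (Entrez 106757) at chr17:56628143-56664456, both on the plus strand. Catsperg1 (Entrez 320225) at chr7:29181321-29214035 and Catsperg2 (Entrez 76718) at chr7:29697219-29727032 lie near each other on the minus strand of chromosome 7. Catsper2 overlaps Pdia3, Gm14000 and Gm14001, Catsperb overlaps Gm24542 and Catsperg1 overlaps Gm17113. Whether reads were counted by strand is not given in the sources used here. Whether reads in these overlaps were told apart is therefore not known. The overlaps are of whole gene spans, and exons were not compared.

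Catsperg1 and Catsperg2 are closely related copies, which bears on how far their values can be read separately. Of the 3621 windows of 50 bases along the Catsperg1 transcript, 1486 (41%) occur letter for letter in the Catsperg2 transcript, and 1603 of the 3908 windows of Catsperg2 (41%) occur in Catsperg1. The longest identical run in the coding sequence is 341 bases and begins at coding base 1945 of both genes. Its first 120 bases are shown because a read that falls within them cannot be assigned to either gene. The 60 bases from coding base 2256 are shown for each gene because they hold the end of the run, with the first 2 differing bases in capitals and all else in lower case.
Both genes, coding bases 1945 to 2064: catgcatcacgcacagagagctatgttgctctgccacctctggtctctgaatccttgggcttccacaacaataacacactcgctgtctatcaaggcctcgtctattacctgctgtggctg
Catsperg1, coding bases 2256 to 2315: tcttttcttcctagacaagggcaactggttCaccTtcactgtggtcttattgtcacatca
Catsperg2, coding bases 2256 to 2315: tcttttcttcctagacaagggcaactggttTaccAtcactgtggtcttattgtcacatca
In the deposited table none of the 12 values of Catsperg1 and none of the 12 of Catsperg2 is a whole number (0%), while every value of the other 6 genes is whole (100%, within 0.005). The split of reads between Catsperg1 and Catsperg2 is therefore an estimate, and their separate values are uncertain.

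The libraries held 13485479 to 15771655 estimated counts, and germ cell transcripts were abundant in all of them. Prm1, a protamine of elongating spermatids, was at 2460 to 3511 normalised CPM (estimated counts scaled to a common library size), Sycp3, of the meiotic chromosome axis, at 188 to 297 CPM, and Insl3, of Leydig cells, at 391 to 743 CPM. Library 3NC 2 stood apart, with a median correlation to the others of 0.948 against 0.974 to 0.984. The summed CPM of 7 leukocyte markers was 683 there and 55.3 to 90.8 elsewhere, and that of 6 interferon response genes was 222 there and at most 12.2 elsewhere. The summed CPM of 6 epididymis markers was 402 in 5NC 2, 249 in 5NC 3 and 480.3 in 8276KD 1, against 156 to 212 in the other 9. Libraries 5NC 2, 5NC 3 and 8276OV 2 had the lowest totals, of at most 13847277. In whole testis, fewer cells of a type and less RNA per cell cannot be told apart.

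All 8 genes were well covered, with 723 estimated counts at the lowest (Catsper3 in 5NC 3) and 4964 at the highest (Catsperg1 in 5NC 1). To compare levels between genes, the deposited values per length were used, whose scale is that of FPKM (fragments scaled by transcript length and library size) as read from the values. Catsper2, a pore subunit, had the highest level, 113.6 ± 9.31 FPKM (SD, n = 12 libraries), and was the highest of the 8 in 12 of 12 libraries. Catsper1 followed at 67.4 ± 11.2 FPKM, Catsper4 at 62.8 ± 10.2 FPKM and Catsperg1 at 62.0 ± 3.97 FPKM. Catsper3 was at 53.7 ± 7.41 FPKM, Catsperd at 51.4 ± 3.81 FPKM and Catsperg2 at 50.9 ± 3.79 FPKM. Catsperb had the lowest mean, 40.2 ± 7.40 FPKM, and was lowest in 10 libraries, with Catsper3 lowest in the other 2. The ends of the order held in most libraries and the middle did not. Catsper2 was above Catsper1 in 12 of 12 libraries, but Catsper4 was above Catsperg1 in 6 of 12, Catsper3 above Catsperd in 8 of 12 and Catsperd above Catsperg2 in 7 of 12, so these neighbours did not differ beyond their spread. The pore is built from one copy of each of its 4 subunits, while their transcript levels were unequal, with Catsper2 at 101.7 to 129.6 FPKM and Catsper3 at 38.7 to 65.8 FPKM. Other genes of the complex, from a list of 8, spanned a wider range. Catsperz, a small cytoplasmic subunit, was at 452.4 ± 29.0 FPKM and Efcab9, its calcium-sensing partner, at 203 ± 30.6 FPKM, both above all 8 genes in every library. None of the counts of Catsperz is whole (0%), and the gene overlaps Kcnk4 on the same strand. The level of Catsperz is therefore an estimate too, as for the gamma genes. Catspere2 at 35.2 FPKM and Catspere1 at 29.5 FPKM, of the epsilon subunit, were at the low end.

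**Figure D1:**
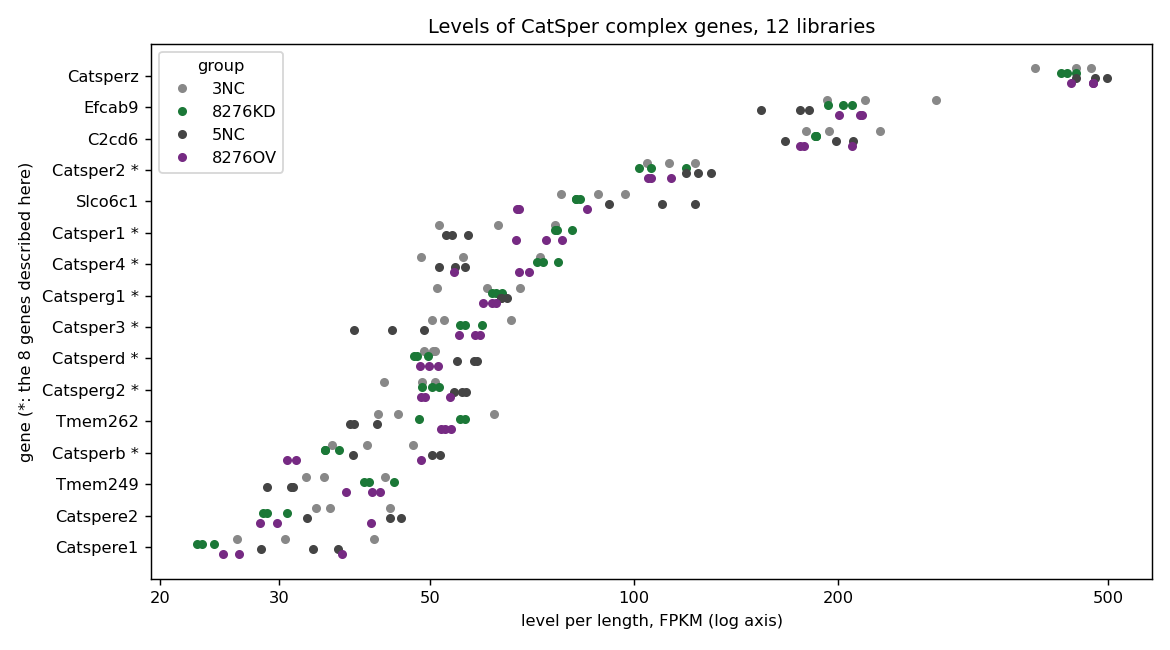
Levels of the 8 CatSper genes (starred) and 8 other genes of the complex in each of the 12 libraries, in FPKM on a log axis, 1 point per library, coloured by group, with genes ordered by their mean. Catsper2 stands above the other 7 starred genes, from 101.7 to 129.6 FPKM, while Catsperz and Efcab9 lie above all starred genes and Catspere1 lies lowest.

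Among the pore genes, Catsper1, Catsper3 and Catsper4 had their lowest group mean in 5NC, and Catsper2 had its highest there. Normalised CPM, used from here on, compares 1 gene between libraries. Catsper1, whose protein carries the histidine-rich tail held to sense pH, was at 134, 102 and 164 CPM in 3NC, 161, 169.7 and 161 in 8276KD, 118.7, 107 and 109 in 5NC, and 168, 138 and 162 in 8276OV. All 3 libraries of 5NC were below all 3 of 8276OV and of 8276KD, and 3NC spanned nearly the whole range, with its lowest value in 3NC 2. Catsper3 was at 61.5, 59.5 and 82.9 CPM in 3NC, 67.2, 72.2 and 67.6 in 8276KD, 46.3, 57.4 and 52.0 in 5NC, and 73.5, 69.3 and 69.1 in 8276OV. The 3 libraries of 5NC were the lowest 3 of the 12. Catsper4 was at 87.4, 70.1 and 117 CPM in 3NC, 120.2, 114 and 109 in 8276KD, 85.7, 76.3 and 82.4 in 5NC, and 110.4, 82.3 and 107 in 8276OV. It followed Catsper1 in having its low values in 3NC 2 and 5NC, but 8276OV 2 lay within the range of 5NC. Catsper2 was at 224, 225 and 271 CPM in 3NC, 240.2, 218 and 210.0 in 8276KD, 247, 255 and 267 in 5NC, and 219, 232 and 223 in 8276OV. In Catsper2 the 3 libraries of 5NC were above the 3 of 8276OV and of 8276KD. Of all tested genes, 11.7% were lower and 10.3% higher in 5NC than in 8276OV without overlap. The share of all genes with 5NC apart from 8276KD, or from all other groups, was not counted.

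Among the auxiliary genes, Catsperb, Catsperd and Catsperg2 had their highest group mean in 5NC, as Catsper2 had. Catsperb was at 129, 135 and 175 CPM in 3NC, 124, 131 and 122 in 8276KD, 134, 176 and 175 in 5NC, and 114, 168 and 112 in 8276OV. Its 4 highest values were in 3NC 3 and in 5NC 2, 5NC 3 and 8276OV 2, the last 3 being the libraries with the lowest totals. Catsperd was at 123, 112 and 128.8 CPM in 3NC, 121, 115 and 114 in 8276KD, 140.3, 128.9 and 138 in 5NC, and 118.7, 122 and 124 in 8276OV. Catsperd in 5NC thus lay above every library of the other groups, though 3NC 3 came close. How many of all genes did the same was not counted. Catsperg1 was at 292, 228 and 328 CPM in 3NC, 310.0, 298 and 309.9 in 8276KD, 312, 303 and 292 in 5NC, and 301, 288 and 302 in 8276OV. Catsperg2 was at 187, 154 and 203 CPM in 3NC, 187, 192 and 196 in 8276KD, 206, 211 and 209.8 in 5NC, and 192, 201 and 191 in 8276OV. Outside 3NC, both gamma genes stayed within a narrow band, and their lowest values of all were in 3NC 2. Over the 12 libraries the coefficient of variation was 18.6% for Catsper1, 18.3% for Catsper4, 17.7% for Catsperb and 15.5% for Catsper3. It was 8.56% for Catsper2, 8.18% for Catsperg1, 7.75% for Catsperg2 and 7.19% for Catsperd. Summed over the 8 genes, the CPM ran from 1086 in 3NC 2 to 1470 in 3NC 3, the extremes lying within 1 group.

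**Figure D2:**
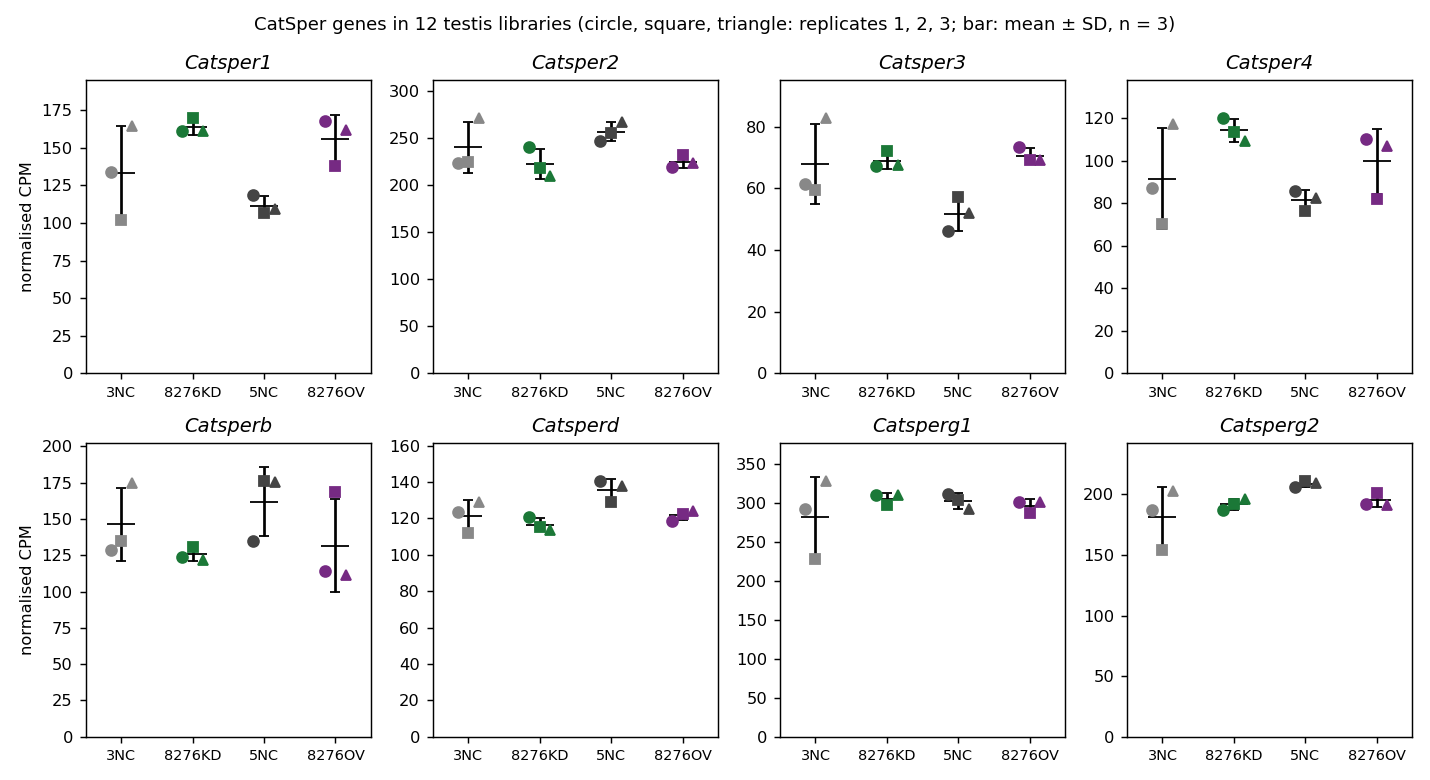
Normalised CPM of the 8 CatSper genes (1 panel each, axes from 0), with circles, squares and triangles for replicates 1, 2 and 3 of each group and bars for the mean ± SD (n = 3). Catsper1 and Catsper3 in 5NC lie below 8276OV without overlap, Catsper2 and Catsperd in 5NC lie above it, and 3NC is the most spread group for Catsper1, Catsper2, Catsper3, Catsper4, Catsperd and both gamma genes.

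The first question was whether CatSper genes differ between 8276OV, labelled as overexpression of lncRNA8276, and 5NC. None of the 8 passed the test in 8276OV against 5NC, where 0.476% of all tested genes did (78 of 16395, edgeR's quasi-likelihood test, Benjamini-Hochberg adjusted p under 0.05). The largest differences were in 2 pore genes. Catsper1 averaged 156 ± 16.1 CPM in 8276OV and 111 ± 6.36 in 5NC (SD, n = 3), a log2 difference of 0.48 ± 0.14 (SE, 95% interval 0.18 to 0.79, edgeR's unadjusted p = 0.00481, adjusted p = 0.132). Catsper3 averaged 70.6 ± 2.49 against 51.9 ± 5.57 CPM, a log2 difference of 0.45 ± 0.12 (interval 0.18 to 0.72, edgeR's unadjusted p = 0.00356, adjusted p = 0.121). DESeq2, run as an alternative, called both, with a log2 difference of 0.48 for Catsper1 (adjusted p = 0.0311) and 0.45 for Catsper3 (adjusted p = 0.0255). In all it called 742 of the 16395 genes fitted. Catsper4 differed by 0.29 ± 0.16 (log2, edgeR adjusted p = 0.431), with overlapping groups.

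The other 5 genes had estimates below 0 in 8276OV against 5NC, from -0.30 to -0.03. Catsper2, the pore gene with the earlier transcripts, was at 225 ± 6.68 CPM in 8276OV and 257 ± 10.1 in 5NC, a log2 difference of -0.19 ± 0.089 (edgeR adjusted p = 0.334). Catsperd, of the delta subunit, was at 122 ± 2.79 against 136 ± 5.97 CPM, a log2 difference of -0.16 ± 0.075 (edgeR adjusted p = 0.355), and Catsperg2 differed by -0.10 ± 0.091 (edgeR adjusted p = 0.683). The libraries of 8276OV and 5NC did not overlap for Catsper1 and Catsper3 (higher), nor for Catsper2, Catsperd and Catsperg2 (lower). Among all tested genes 11.7% were higher and 10.3% lower without overlap in the same comparison. Catsperb, of the beta subunit, differed by -0.30 ± 0.17 (edgeR adjusted p = 0.444) and Catsperg1 by -0.03 ± 0.11 (edgeR adjusted p = 0.943), both with overlap. With the counts of Catsperg1 and Catsperg2 summed, the difference was -0.06 ± 0.10 (edgeR adjusted p = 0.855). With a covariate marking the 3 libraries of lowest total, where Catsperb was high, its estimate was -0.15 (edgeR adjusted p = 0.611), and without 8276OV 2 it was -0.52 (edgeR adjusted p = 0.0823). At an unadjusted p below 0.05, 2 of the 8 were higher and none lower, beside 8.9% and 6.39% of all genes. The median log2 difference of the 8 was -0.06, that of all tested genes -0.01. The signs within the channel were mixed, with 3 of the 4 pore genes above 0 and all 4 auxiliary genes below 0.

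**Figure D3:**
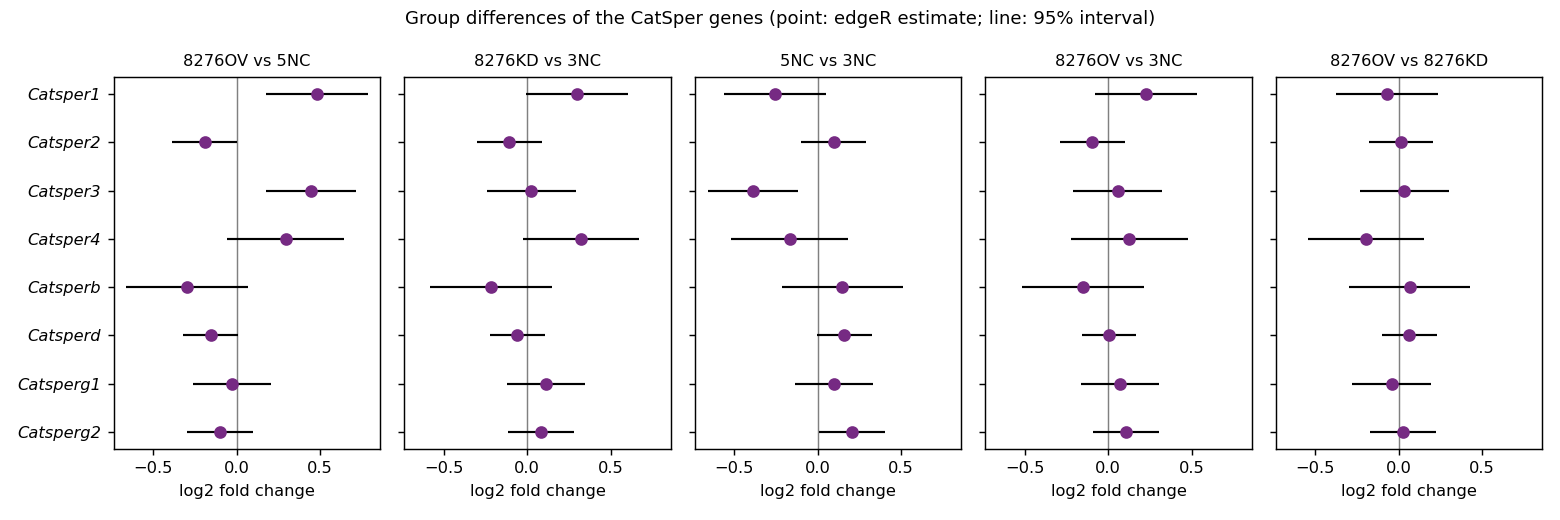
Log2 fold change of each CatSper gene in 5 comparisons (points, edgeR estimates) with its 95% interval (lines) and a grey line at 0. In 8276OV against 5NC the intervals of Catsper1 and Catsper3 lie wholly above 0, at 0.18 to 0.79 and 0.18 to 0.72, and in 5NC against 3NC that of Catsper3 lies below 0, while none of the 8 passed after adjustment over all genes.

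The second question was whether the CatSper genes differ between 8276KD, labelled as inhibition of lncRNA8276, and 3NC. None of the 8 passed in 8276KD against 3NC, where 0.0183% of all genes did (3 of 16395), none was at an unadjusted p below 0.05, beside 8.69% of all genes, and the libraries of the 2 groups overlapped for all 8. The background without overlap was 6.46% higher and 6.57% lower. Catsper4 had the largest estimate, 114 ± 5.47 CPM in 8276KD and 91.5 ± 23.8 in 3NC, a log2 difference of 0.32 ± 0.16 (95% interval -0.03 to 0.67, edgeR adjusted p = 0.562). Catsper1 was at 164 ± 5.08 against 133 ± 31.1 CPM, a log2 difference of 0.30 ± 0.14 (interval -0.01 to 0.60, edgeR adjusted p = 0.559). These estimates depended on single libraries of 3NC. Without 3NC 2, the library with high leukocyte and interferon transcripts, Catsper4 differed by 0.16 and Catsper1 by 0.14 (edgeR adjusted p = 0.850 and 0.833). Without 3NC 3 they differed by 0.54 and 0.47 (edgeR adjusted p = 0.191 each). Catsper3, which was among the largest differences in 8276OV against 5NC, differed here by 0.02 ± 0.12 (interval -0.24 to 0.29, edgeR adjusted p = 0.954). Catsper2 differed by -0.11 ± 0.089, Catsperb by -0.22 ± 0.17, Catsperd by -0.06 ± 0.075, Catsperg1 by 0.11 ± 0.11 and Catsperg2 by 0.08 ± 0.091 (edgeR adjusted p of 0.642 to 0.777 for these 5). Without 3NC 3, Catsper2 was at -0.010, Catsperb at -0.068 and Catsperd at -0.013, and Catsper3, Catsperg1 and Catsperg2 at 0.19, 0.24 and 0.17. Without 3NC 2, Catsper3, Catsperg1 and Catsperg2 were at -0.065, -0.019 and -0.024, and Catsperd at -0.12. The median of the 8 was 0.05, and it ran from -0.04 without 3NC 2 to 0.18 without 3NC 3.

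The control groups were also set against each other. In 5NC against 3NC none of the 8 passed, where 0.244% of all genes did (40 of 16395). Catsper3 was at 51.9 ± 5.57 CPM in 5NC and 67.9 ± 13.0 in 3NC, a log2 difference of -0.39 ± 0.12 (95% interval -0.66 to -0.12, edgeR's unadjusted p = 0.00833, adjusted p = 0.251) with no overlap. Without 3NC 2 it was -0.48 (edgeR adjusted p = 0.0936) and without 3NC 3 it was -0.22 (edgeR adjusted p = 0.299). Catsperg2 differed by 0.20 ± 0.091 (edgeR's unadjusted p = 0.0444, adjusted p = 0.377) and Catsperd by 0.16 ± 0.075 (edgeR adjusted p = 0.399), both higher in 5NC without overlap. Groups did not overlap for 7.01% of all genes on the higher and 6.17% on the lower side. At an unadjusted p below 0.05, Catsperg2 was higher, beside 5.01% of all genes, and Catsper3 lower, beside 7.87%. The split of reads between the gamma genes is uncertain. With the counts of Catsperg1 and Catsperg2 summed, the difference was 0.14 ± 0.10 (edgeR adjusted p = 0.587). Catsper1 differed by -0.26 ± 0.14 and Catsper4 by -0.17 ± 0.16, both with overlap (edgeR adjusted p = 0.466 and 0.710), and by -0.42 and -0.33 without 3NC 2 (edgeR adjusted p = 0.0910 and 0.280). Without 3NC 3, Catsper1 differed by -0.081 and Catsper4 by 0.050 (edgeR adjusted p = 0.804 and 0.902), so the sign of Catsper4 turned. Catsper2, Catsperb and Catsperg1 differed by 0.10 ± 0.089, 0.15 ± 0.17 and 0.10 ± 0.11, with overlap. With single libraries left out, Catsper2 ran from 0.049 (without 3NC 1) to 0.19 (without 3NC 3) and Catsperb from 0.064 (without 3NC 1) to 0.30 (without 3NC 3). Without 3NC 2, Catsperg2 was at 0.10, Catsperd at 0.10 and Catsperg1 at -0.034. The median of the 8 was 0.10.

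Set against 3NC in place of 5NC, 8276OV gave estimates from -0.15 (Catsperb) to 0.23 (Catsper1). None of the 8 passed, beside 0.0061% of all genes, and the median was 0.06. The groups overlapped for all 8, where 3.6% of all genes were higher and 3.2% lower without overlap. These comparisons share libraries, and the values are given side by side. For Catsper1 the estimates were 0.48 against 5NC and 0.23 against 3NC. The latter was 0.065 without 3NC 2 and 0.40 without 3NC 3. For Catsper3 the estimates were 0.45 ± 0.12 against 5NC and 0.06 ± 0.12 against 3NC (edgeR adjusted p = 0.121 and 0.907). For Catsperb the estimate against 3NC ran from -0.37 without 8276OV 2 to -0.0065 without 3NC 3. In 8276OV against 8276KD the estimates ran from -0.20 (Catsper4) to 0.07 (Catsperb), with overlap for all 8, where 5.54% of all genes were higher and 5.03% lower without it. Without 8276OV 2 these were -0.075 for Catsper4 and -0.15 for Catsperb. None of the 8 passed there by edgeR's test, nor did any other gene (0%, 0 of 16395), with 343 genes (2.09%) at an unadjusted p below 0.05 and 12 called by DESeq2. The viruses used and the direction of the lncRNA change cannot be told apart in it. The difference between the effects (8276OV against 5NC minus 8276KD against 3NC) ran from -0.18 (Catsperg2) to 0.42 ± 0.17 (Catsper3, edgeR's unadjusted p = 0.0319, adjusted p = 0.707). Without 3NC 3 the value of Catsper3 was 0.25 and that of Catsperg2 -0.27, and without 3NC 2 they were 0.51 and -0.075. None of the 8 passed, beside 0.0183% of all genes. Catsper3 was the only one of the 8 at an unadjusted p below 0.05, beside 6.73% of all genes, and the median was -0.08.

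Ratios within a library show the unequal behaviour of the genes without any scaling between libraries. They were chosen after the values were seen and carry no test. In the ratios to Catsperb and to Catsper2, a gene with its lowest mean in 5NC stands over one with its highest there. A low value in 5NC was thus built in by the choice. The ratio of Catsper1 to Catsperb in FPKM was 1.76, 1.28 and 1.62 in 3NC, 2.18, 2.20 and 2.19 in 8276KD, 1.48, 1.02 and 1.07 in 5NC, and 2.47, 1.38 and 2.41 in 8276OV. It was nearly constant in 8276KD, and in 8276OV library 8276OV 2 fell within the range of 5NC. The ratio of Catsper3 to Catsper2, both pore genes, was 0.483, 0.466 and 0.535 in 3NC, 0.464, 0.565 and 0.554 in 8276KD, 0.324, 0.395 and 0.340 in 5NC, and 0.567, 0.516 and 0.522 in 8276OV. For this ratio 5NC lay below every library of the other groups, and how many other pairs of genes did so was not counted. Over the 12 libraries the ratio of Catsper1 to Catsper4 ran only from 0.991 to 1.23. That of Catsperg1 to Catsperg2 ran from 1.14 to 1.33.

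Markers of germ cell stages are given beside these values. For 8 round spermatid markers the summed CPM was 1038 to 1112 in 5NC, 1210 to 1437 in 8276OV, 1322 to 1375 in 8276KD and 1059 to 1499 in 3NC. All 8 had estimates above 0 in 8276OV against 5NC, with a median log2 difference of 0.42, beside 48.0% of all genes above 0. All 8 had estimates below 0 in 5NC against 3NC, with a median of -0.34, where 46.6% of all genes were above 0. Both use the same 5NC libraries. In 8276KD against 3NC all 8 were above 0 as well, beside 45.3% of all genes, with a median of 0.06. None of them passed the test in any of these comparisons. Among those 8 are Acrv1, an acrosome protein, and Izumo1, the sperm protein that binds the egg. For 8 spermatocyte markers, such as Sycp3, the medians were -0.07 and 0.10, with 4 estimates above 0 and 4 below in 8276OV against 5NC and 7 above and 1 below in 5NC against 3NC. For 8 elongating spermatid markers the medians were 0.19 and -0.12, with 6 above and 2 below in the first and 3 above and 5 below in the second. Prm1 and Tnp1, named after their values were seen, were the 2 below 0 in 8276OV against 5NC, at -0.09 and -0.07. The elongating spermatid list had a summed CPM of 17551 to 21743 in 5NC and 18236 to 24657 in 8276OV. The part of cell composition in the CatSper values was not tested. None of these germ cell markers was at 0 in any library, while the epididymis marker Lcn5 was at 0 in 8 of 12. Over the 12 libraries, the summed CPM was 98.4 to 114 for spermatogonia markers, 659.9 to 918 for Sertoli cell markers, 915 to 2091 for Leydig cell markers and 57.2 to 158 for peritubular myoid markers. The leukocyte markers were summed at 67.9 to 80.3 CPM in 5NC and 66.9 to 86.6 in 8276OV.

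**Figure D4:**
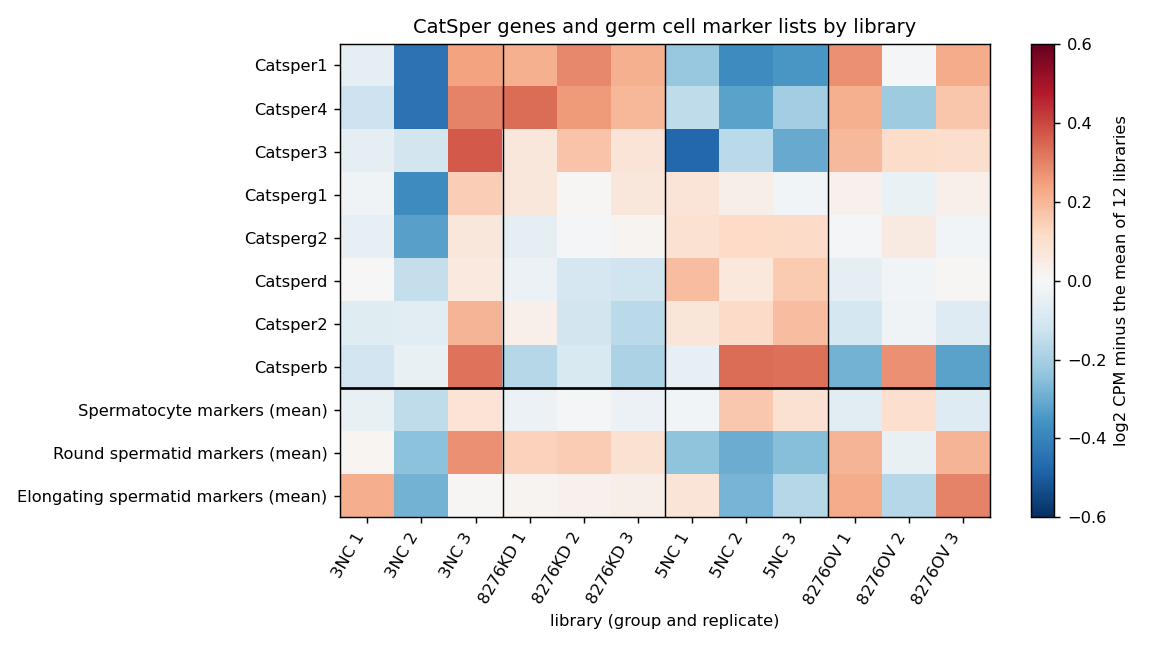
Log2 CPM of the 8 CatSper genes, and the mean of 3 germ cell marker lists, in each library, minus the mean over the 12 libraries (red above, blue below, scale in log2 units). Catsper1, Catsper3 and Catsper4 are blue in 5NC, as is the round spermatid row. Catsperb is red in 3NC 3, 5NC 2, 5NC 3 and 8276OV 2, and most genes are blue in 3NC 2.

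The other 8 genes of the complex were all tested, and none passed in any comparison. In 8276OV against 5NC, 3 were higher and 2 lower at an unadjusted p below 0.05, beside 8.9% and 6.39% of all genes, and the median was 0.03. Without overlap, 3 were higher and 1 lower there, beside 11.7% and 10.3% of all genes. Efcab9, the calcium sensor that gates the channel with Catsperz, was at 142, 136 and 133 CPM in 8276OV against 97.6, 112 and 109 in 5NC, without overlap. That is a log2 difference of 0.37 ± 0.13 (edgeR adjusted p = 0.193), and in 5NC against 3NC Efcab9 differed by -0.46 ± 0.13 (edgeR adjusted p = 0.195). Both comparisons share the 5NC libraries. Catsperz differed by 0.03 ± 0.10, Catspere1 by -0.09 ± 0.14 and Catspere2 by -0.27 ± 0.12 (edgeR adjusted p of 0.317 to 0.937). Slco6c1, an organic anion transporter relative found with the channel, and chosen here after its values were seen, was at 156, 189.8 and 159 CPM in 8276OV and 202, 272 and 246 in 5NC. Its log2 difference was -0.51 ± 0.13 (edgeR adjusted p = 0.0913), the largest in size among the 16 genes of the complex in this comparison, and opposite in sign to that of Catsper1. In 8276KD against 3NC, Catspere1 differed by -0.44 ± 0.14 and Catspere2 by -0.36 ± 0.12 (edgeR adjusted p = 0.559 each). They were the 2 of the 8 that were lower without overlap, beside 6.57% of all genes. Catspere1 and Catspere2 are copies that share 25.1% and 21.1% of their windows of 50 bases. Catspere1 is also annotated as a pseudogene in GENCODE M21, so the separate values of both are uncertain.

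Of 20 other genes of sperm ion transport and tail signalling, all tested, none passed in 8276OV against 5NC, 8276KD against 3NC or 5NC against 3NC. In 8276OV against 5NC, 8 were higher and 3 lower at an unadjusted p below 0.05, beside 8.9% and 6.39% of all genes, and the median was 0.14. Without overlap, 9 were higher and 2 lower there, beside 11.7% and 10.3% of all genes. Kcnu1, the sperm potassium channel that sets the membrane voltage, differed by 0.44 ± 0.13 (log2, edgeR adjusted p = 0.129), and Lrrc52, its auxiliary subunit, by 0.44 ± 0.15 (edgeR adjusted p = 0.183), both higher without overlap. Kcnu1 and Lrrc52 thus had the sign and about the size of Catsper1 and Catsper3. Slc9c1, the sperm sodium-proton exchanger that raises internal pH, differed by -0.32 ± 0.14 (edgeR adjusted p = 0.317), on the side of Catsper2. Hvcn1, the proton channel, was too low to place, at -0.02 ± 0.57 (edgeR adjusted p = 0.993). In 8276KD against 3NC 1 gene of the 20 was higher and none lower at an unadjusted p below 0.05, beside 8.69% of all genes in either direction. In 5NC against 3NC none was higher and 4 were lower, beside 5.01% and 7.87% of all genes, with a median of -0.15, and Kcnu1 there differed by -0.45 ± 0.13 (edgeR adjusted p = 0.198).

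Catsper3 and Catsper4 are among the genes whose group mean was lowest in 5NC, and Catsper2 and Catsperd among those highest there. Their promoters, chosen after the values were seen, are shown so that their sequence can be set beside the patterns. Each runs from 250 bases before to 50 after a start site, 5′ to 3′ on the gene's strand, from RefSeq on GRCm38.p6, in which 6 of the 8 genes had an entry. Capitals mark TGACG on either strand, the core of the element bound by the CREB and CREM factors, the latter a regulator of spermatid genes.
Catsper3, chr13:55784329-55784628, plus strand: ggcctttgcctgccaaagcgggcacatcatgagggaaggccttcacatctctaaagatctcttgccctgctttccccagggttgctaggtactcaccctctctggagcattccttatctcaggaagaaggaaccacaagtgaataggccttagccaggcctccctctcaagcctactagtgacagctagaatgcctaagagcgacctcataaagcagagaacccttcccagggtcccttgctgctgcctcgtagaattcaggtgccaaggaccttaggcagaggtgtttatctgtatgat
Catsper4, chr4:134227334-134227633, minus strand: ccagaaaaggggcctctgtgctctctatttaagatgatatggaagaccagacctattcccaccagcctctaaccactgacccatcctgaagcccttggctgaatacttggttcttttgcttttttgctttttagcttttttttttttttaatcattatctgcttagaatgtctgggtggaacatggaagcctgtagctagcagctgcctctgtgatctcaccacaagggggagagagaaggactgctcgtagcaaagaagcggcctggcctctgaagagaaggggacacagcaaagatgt
Catsper2, chr2:121413743-121414042, minus strand: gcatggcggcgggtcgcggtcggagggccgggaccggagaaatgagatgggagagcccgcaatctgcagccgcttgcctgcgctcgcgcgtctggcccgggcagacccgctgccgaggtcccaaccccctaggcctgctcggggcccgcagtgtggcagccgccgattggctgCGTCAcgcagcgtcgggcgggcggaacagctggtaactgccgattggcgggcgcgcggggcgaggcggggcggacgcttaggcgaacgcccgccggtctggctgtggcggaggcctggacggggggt
Catsperd, chr17:56626797-56627096, plus strand: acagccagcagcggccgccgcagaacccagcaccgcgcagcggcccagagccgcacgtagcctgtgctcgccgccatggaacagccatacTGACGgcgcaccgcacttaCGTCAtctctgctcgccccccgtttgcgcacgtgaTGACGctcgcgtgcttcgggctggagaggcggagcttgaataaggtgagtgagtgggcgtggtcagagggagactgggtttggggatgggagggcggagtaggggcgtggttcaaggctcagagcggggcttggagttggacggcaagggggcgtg
The GC content of these windows was 52.3% for Catsper3, 46.7% for Catsper4, 74.7% for Catsper2 and 66.7% for Catsperd. TGACG occurred 3 times in this window of Catsperd, 1 time in that of Catsper2, and in neither of the others. The window shown for Catsperd lies wholly before the start of the gene at chr17:56628143 given above. A further start of Catsperd has the window chr17:56627893-56628192, which holds that position. This further window had 0 matches and a GC content of 53%. Over 32851 promoter windows of the same length, 20.8% hold TGACG. The windows of Catsperb and Catsperg1 held none, though the group mean of Catsperb was also highest in 5NC. No window of these genes held the whole palindrome TGACGTCA, which contains TGACG and occurs in 1.79% of all windows. Nor did any hold GTTGCC, part of the X-box of ciliary genes, which occurs in 12.5%. A match describes the letters of the window only.

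For each gene, the tested gene with the most similar log2 CPM over the 12 libraries was sought among 9852 others with a mean of at least 10 CPM. The libraries share their groups and their scaling, so Pearson's r is a description here. Catsper1 was closest to 1700067P10Rik (r = 0.987), Catsper3 to Mfap3l (r = 0.982), Catsper4 to Pln, the phospholamban gene (r = 0.960), and Catsper2 to AA467197 (r = 0.951). Catsperb was closest to Fyttd1 (r = 0.985), Catsperd to Pithd1 (r = 0.935), Catsperg2 to Mif4gd (r = 0.973) and Catsperg1 to Ybx1 (r = 0.965). Leaving out the 2 libraries farthest from each gene's median, r was 0.875 to 0.985 for 7 of them and 0.571 for Catsperg1. The mean of the 8 genes was closest to Pias2 (r = 0.951), Agtpbp1 (0.936), Dcaf6 (0.929), Cfap206 (0.920) and Spesp1 (0.916). Without 3NC 2 and 3NC 3 these fell to between 0.354 and 0.657, so the likeness to the mean rests on those libraries.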

How the data were processed

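Estimated counts per gene and values per length on an FPKM scale were deposited by the authors for all 12 libraries in 1 table. The columns of counts are named so per the file headers, 88.2% of all values are whole (within 0.005), and the unit of the FPKM columns was read from the deposited values. The genome build named is mm10, per the submitters' processing notes, and the aligner, the counter, the annotation and any strand setting were not given in the sources used here. A further 18 per-sample columns, of 9 other samples, were not used.

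Estimated counts were rounded and fitted in R 4.3.3 with edgeR 4.0.16: filterByExpr with a minimum count of 10 (16395 of 20788 genes, the 4393 left out holding 0.0708% of counts), TMM, and 1 robust quasi-likelihood model of group means over all 12 libraries (biological coefficient of variation 19.7%). P-values were adjusted by Benjamini-Hochberg over all tested genes, with a threshold of 0.05. Normalised CPM are counts scaled to the TMM-adjusted library size. FPKM compare genes within a library. Every pair of libraries differed by more than counting noise (3.13 to 41.0 chi-square units for each degree of freedom). DESeq2 1.42.0, limma-voom (limma 3.58.1), scaling by totals, no filter and fits of the compared groups only were alternatives. So were a replicate block, leaving out each library, and summing the counts of Catsperg1 and Catsperg2. A covariate marking the 3 libraries of lowest total (5NC 2, 5NC 3, 8276OV 2), and leaving these out, were added after seeing the data. The scripts were tested on simulated data. Of simulated 1.5-fold changes, 31.8% were recovered in 8276OV against 5NC and 22.4% in 8276KD against 3NC. Of 4-fold changes, 89.4% and 84.4% were. A gene that did not pass can therefore not be read as unchanged.

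The genes, lists, marker lists and tests were chosen with earlier results of these data known. By rule, the text names the 8 genes, any gene of 2 lists (8 other complex genes, 20 of ion transport and tail signalling) that passed, up to 4 more per list in list order, and the most similar genes. Others are named as chosen after their values were seen. Marker lists were spermatogonia, spermatocyte, round and elongating spermatid, Sertoli, Leydig, peritubular myoid, leukocyte, interferon response and epididymis. Windows were compared on the transcripts' own strand, and promoter motifs were counted on both strands.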

Additional observations from a re-analysis of the deposited data

How the results depend on the processing

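Across 14 alternatives each, Catsper1 and Catsper3 kept a positive difference in 8276OV against 5NC (0.41 to 0.57 and 0.37 to 0.63 log2). Outside the fit that leaves 5NC with 1 library, adjusted p ran from 0.0311 (DESeq2) to 0.441 (edgeR) for Catsper1. For Catsper3 it ran from 0.0255 (DESeq2) to 0.399 (edgeR). DESeq2 alone called them, as 2 of the 8 genes, among 742 of the 16395 genes fitted. Leaving out single libraries, the genes called ran from 5 (without 5NC 3) to 217 (without 8276OV 2) in 8276OV against 5NC, 7 (without 5NC 3) to 126 (without 3NC 2) in 5NC against 3NC, 1 to 9 in 8276KD against 3NC, 1 to 5 in 8276OV against 3NC, 0 to 2 in 8276OV against 8276KD and 3 to 12 for the difference of effects. DESeq2 called 742, 305, 23, 14, 12 and 53 in these comparisons, against 78, 40, 3, 1, 0 and 3. Scaling by totals gave 163 and 68 in the first 2. Fits of the compared groups only gave 9 in 5NC against 3NC and 0 in 8276KD against 3NC and in 8276OV against 3NC. With the covariate marking the 3 libraries of lowest total, 6 were called in 5NC against 3NC and 2 in 8276OV against 3NC. Without those 3 libraries, which leaves 5NC with 1 library assumed to vary like the rest, 3 were called in 8276OV against 5NC, 2 in 5NC against 3NC, 0 in 8276KD against 3NC and 2 in 8276OV against 3NC. Fits that leave out libraries hold fewer samples; otherwise the cause was not tested.

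The median of the 8 genes moved to -0.026 in 5NC against 3NC without those 3 libraries. With single libraries left out it ran from -0.044 to 0.18 in 8276KD against 3NC, -0.043 to 0.19 in 8276OV against 3NC and -0.21 to -0.018 for the difference of effects. Signs turned as follows. In 5NC against 3NC, Catsper4 was 0.0033 with the covariate and -0.33 to 0.050 with single libraries left out, Catsperb was -0.18 with the covariate and -0.12 without those libraries, and Catsperg1 ran from -0.034 to 0.22. In 8276KD against 3NC, Catsper3 ran from -0.065 to 0.19, Catsperg1 from -0.019 to 0.24 and Catsperg2 from -0.024 to 0.17. In 8276OV against 8276KD, Catsperb was -0.12 with the covariate, -0.15 without the low-total libraries, and -0.15 to 0.17 with single libraries left out. With the replicate block, 269 genes were called in 8276OV against 5NC and 6 for the difference of effects. Deviations of same-numbered libraries correlated at 0.21, 0.31 and -0.12 in 8276OV and 5NC, where unlike numbers gave -0.41 to 0.27. In 8276KD and 3NC they correlated at 0.04, -0.04 and -0.09, where unlike numbers gave -0.059 to 0.099. In 8276OV and 8276KD they correlated at 0.14, 0.03 and 0.18, where unlike numbers gave -0.16 to 0.005. These values do not settle whether the numbers pair the samples, and the main fit did not pair them.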
